A study of Mus musculus with 8 samples.

Results

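The genes of the proteasome were examined in *in vitro*-differentiated effector Th cells and in the naïve CD4 T cells they came from. Members were all genes of the deposited expression tables whose symbol begins with Psma, Psmb, Psmc, Psmd, Psme, Psmf or Psmg followed by a number, and whose mean expression over the 8 libraries was at least 1 FPKM, a fragment count scaled to transcript length and library size. Of 23284 gene symbols, 48 matched the pattern and 46 passed the minimum, out of 11198 genes that passed it in all. The 2 that failed were *Psma8*, a core subunit of the testis, with a mean of 0.213 FPKM, and *Psmb11*, the core subunit of the thymic cortex, with a mean of 0.00236 FPKM, while the lowest mean inside was 6.55 FPKM for *Psmd9*. The rule used no measured difference between groups, though it was set with earlier results of these data known.

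All cells came from mice of the DO11.10 Tg strain, which carry a T cell receptor transgene specific for a peptide of ovalbumin, and each of the 4 groups had 2 libraries. Naïve CD4 T cells were sorted from the spleen as CD44low CD62Lhi CD4+ cells and were not cultured. Effector cells were cultured for 6 days with that peptide on splenocytes that had been irradiated and stripped of T cells. For Th1 the medium held IL-2 (30 U/ml), IL-12 (100 U/ml) and anti-IL-4 (1 µg/ml), and for Th2 it held IL-2 (30 U/ml), IL-4 (100 U/ml) and anti-IFN-γ (10 µg/ml). For Th17 it held the cytokines IL-1β, IL-6 and IL-23 at 10 ng/ml each, with anti-IL-4 and anti-IFN-γ at 10 µg/ml each. Anti-IFN-γ was thus present in Th2 and Th17 cultures and not in Th1 cultures, and cytokine, antibody and subset cannot be told apart in this design. The effector cultures were stimulated with a single peptide. The study used mice aged 6 to 12 weeks, and the sex of the mice is not given in the sources used here.

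The proteasome degrades proteins tagged with ubiquitin. Its core is a barrel of α rings (the *Psma* genes) around β rings (the *Psmb* genes), and 3 of the β subunits cut peptide bonds: *Psmb5*, *Psmb6* and *Psmb7*. In lymphoid cells and in cells exposed to IFN-γ, these can be replaced by *Psmb8* (LMP7), *Psmb9* (LMP2) and *Psmb10* (MECL-1), in that order, which gives the immunoproteasome and a different set of peptides for MHC class I. A regulatory particle caps the core: its base holds a ring of ATPases (the *Psmc* genes) that unfold the substrate, and its lid holds ubiquitin-processing *Psmd* subunits. Alternative caps are PA28αβ (*Psme1* and *Psme2*, also induced by IFN-γ), PA28γ (*Psme3*) and PA200 (*Psme4*), *Psmf1* is the inhibitor PI31, and the *Psmg* genes and *Psmd5*, *Psmd9* and *Psmd10* are assembly chaperones.

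Promoter sequences are shown for the 3 immune subunits, whose levels differed widely between groups, and for the constitutive subunit *Psmb5* as a comparison. Each is the 250 bases before the annotated start, 5′ to 3′ on the strand of the gene, from RefSeq on GRCm38.p6, the assembly behind the mm10 coordinates of the expression tables. Capitals mark matches to 4 motifs searched on both strands: an interferon response element (GAAA, any 2 bases and GAAA), a GAS site bound by STAT factors (TTCNNNGAA), an antioxidant response element (TGACNNNGC) and the CCAAT box (CCAAT). None of the 4 motifs contains another.
Psmb8: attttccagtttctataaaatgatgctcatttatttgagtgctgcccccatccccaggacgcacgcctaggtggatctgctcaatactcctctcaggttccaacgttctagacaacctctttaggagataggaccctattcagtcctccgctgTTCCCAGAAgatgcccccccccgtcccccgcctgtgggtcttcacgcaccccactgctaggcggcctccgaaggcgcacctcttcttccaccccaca
Psmb9: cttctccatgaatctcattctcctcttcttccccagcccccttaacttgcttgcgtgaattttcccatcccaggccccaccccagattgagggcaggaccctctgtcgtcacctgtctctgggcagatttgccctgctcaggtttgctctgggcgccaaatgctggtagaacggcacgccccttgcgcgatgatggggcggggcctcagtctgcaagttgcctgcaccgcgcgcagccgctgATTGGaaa
Psmb10: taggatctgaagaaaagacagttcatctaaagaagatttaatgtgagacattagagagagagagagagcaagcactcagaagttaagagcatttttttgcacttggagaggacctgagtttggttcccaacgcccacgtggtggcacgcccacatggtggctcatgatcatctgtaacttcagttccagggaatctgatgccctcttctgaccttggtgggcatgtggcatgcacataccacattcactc
Psmb5: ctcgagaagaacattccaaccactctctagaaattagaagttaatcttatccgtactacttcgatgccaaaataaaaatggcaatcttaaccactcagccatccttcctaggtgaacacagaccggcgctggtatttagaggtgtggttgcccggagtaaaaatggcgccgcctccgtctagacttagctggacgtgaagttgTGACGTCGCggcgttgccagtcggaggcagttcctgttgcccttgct
The windows are chr17:34197945-34198194 (plus strand) for *Psmb8*, chr17:34187331-34187580 (minus strand) for *Psmb9*, chr8:105938393-105938642 (minus strand) for *Psmb10* and chr14:54617996-54618245 (minus strand) for *Psmb5*. They lie just outside the gene loci of the tables, which are chr17:34198195-34201454, chr17:34182099-34187330, chr8:105935728-105938392 and chr14:54614120-54617995. The *Psmb8* window held a GAS match starting 97 bases before the start, the *Psmb9* window a reverse CCAAT box 8 bases before it, and the *Psmb5* window an antioxidant response element match 47 bases before it, while none of the 4 motifs matched in the *Psmb10* window. A window was given for 39 of the 46 members. Interferon response element letters occurred in 3 of them (7.69%, against 2.76% of the 7896 windows of genes tested), namely *Psmb3*, *Psmd4* and *Psmd9*, and GAS letters in 2 (5.13% against 6.07%). Antioxidant response element letters occurred in 5 (12.8% against 12.4%) and the CCAAT box in 12 (30.8% against 36.7%). A match describes letters, not a bound site.

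The labels of the groups matched their lineage genes, with *Cxcr3* as an exception. The 5 T cell genes listed of 6 summed to 1094 to 2029.9 FPKM in every library. *Tbx21*, *Ifng* and *Cxcr3* together stood at 674 to 855 FPKM in Th1 libraries and at most 15.3 FPKM elsewhere. Most of this Th1 sum was *Ifng* (802 and 614 FPKM), and *Cxcr3* stood at 8.01 and 9.35 FPKM in Th1 against 11.3 and 11.5 FPKM in Th17. The 4 Th2 genes stood at 384 to 417 FPKM in Th2 and at most 26.4 FPKM elsewhere, and the 3 Th17 genes at 1367 to 1394 FPKM in Th17 and at most 2.50 FPKM elsewhere. Of markers of other cells, the 4 CD8 T or NK genes summed to 54.9 to 93.6 FPKM in naïve libraries and 9.05 to 13.2 FPKM in effector libraries, where *Ncr1* was at 0 in all of them. Nearly all of the naïve sum was *Cd8b1* (90.5 and 52.8 FPKM), while *Cd8a* stood at 2.94 and 1.77 FPKM there. *Klrb1c* had its lowest mean in naïve cells (0.0725 FPKM). The 5 B cell genes summed to 2.32 to 3.13 FPKM in Th1, 6.58 to 9.72 FPKM in naïve and Th2, and 11.1 to 12.1 FPKM in Th17, the 4 listed macrophage genes of 5 to 12.2 to 13.6 FPKM in Th1, 16.9 to 18.5 FPKM in naïve and 22.2 to 29.5 FPKM in Th2 and Th17, and the 3 erythroid genes to 6.04 to 7.40 FPKM in naïve and at most 0.700 FPKM in effector libraries. The 5 dendritic cell genes summed to at most 0.901 FPKM in naïve cells and to 54.4 to 272 FPKM in effector cells, where nearly all of it was *Batf3*, a factor that activated T cells also express. The neutrophil genes *Mpo* and *Elane* stood at 2.46 to 4.89 FPKM in replicate 1 of each effector group and at 0 to 0.106 FPKM in replicate 2. Of the same list, *S100a9* was at 0 in every effector library, and *S100a8* stood at most at 0.663 FPKM in any library. The part of these cells in the differences below was not tested, and in bulk RNA fewer cells of a type and less RNA per cell cannot be told apart.

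Each of the 46 members was a single row with a valid estimate in all 8 libraries, and the confidence intervals of the FPKM values implied 108 to 12543 fragments per member and library, out of 14463466 to 21058286 per library. Mean levels ran from 6.55 FPKM for *Psmd9* to 309 FPKM for *Psmb8*. The 2 libraries of a group differed by a median of 1.09-fold in naïve cells, 1.12-fold in Th1, 1.12-fold in Th2 and 1.10-fold in Th17. Replicate 2 was the higher library for 36 of 46 members in Th1 and 39 in Th17, and for 11 of 46 in Th2. Because 2 libraries give a rough SD, and the labels do not say whether they came from separate mice or cultures, p-values measure only the spread between these libraries.

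Summed proteasome expression was higher in effector Th1 and Th17 cells than in naïve cells and was not in Th2 cells. The summed FPKM of the 46 members was 2863 and 2873 in the naïve libraries, 3421 and 3740 in Th1, 2576 and 2327 in Th2 cells, and 3180 and 3502 in Th17. All 4 Th1 and Th17 libraries lay above both naïve libraries, and both Th2 libraries lay below them. The roles were divided in Th2. Mean sums were below naïve for immune subunits (300 against 636 FPKM), activators (249 against 425), ATPases (233 against 278), chaperones and the inhibitor. They were above naïve for the lid (351 against 285) and the structural β genes (445 against 367). Libraries overlapped for the α ring (465 against 439) and the constitutive catalytic subunits (151 against 138). As a share of the implied fragments, members took 0.460% to 0.461% in naïve, 0.541% to 0.559% in Th1, 0.412% to 0.441% in Th2 and 0.523% to 0.540% in Th17 libraries.

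Counted gene by gene with limma on log2(FPKM + 1), at an adjusted p under 0.05, 25 of 46 members were higher and 4 lower in Th1 than in naïve cells, where 33.8% and 33.5% of all genes tested were called higher and lower. In Th17 the counts were 26 higher and 5 lower, against 37.5% and 29.8% of all genes. In Th2 they were 10 higher and 16 lower, against 31.8% and 38.7%. The median log2 difference of the members was 0.42 in Th1, 0.44 in Th17 and -0.03 in Th2, beside -0.01, 0.08 and -0.11 over all genes. Lower calls were thus few in Th1 and Th17, while the counts in Th2 lay nearer to the shares of all genes. The Th2 split depended on scaling: with libraries scaled to one median, which moved the median of all genes from -0.11 to 0.00 and that of the members from -0.03 to 0.11, it was 15 higher and 11 lower, and 57.7% rather than 38.5% of the calls were higher. After quantile normalization the Th1 split was 20 higher and 7 lower, so that 74.1% rather than 86.2% of the calls were higher. The counts of higher members in Th1 were 16 without naïve replicate 2 and 15 without Th1 replicate 2, of lower members in Th1 between 1 and 2 without either naïve library, either Th1 library or either Th17 library, of higher members in Th2 6 without Th2 replicate 1, of lower members in Th2 10 without Th2 replicate 2, and of lower members in Th17 3 without Th17 replicate 1.

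**Figure D1:**
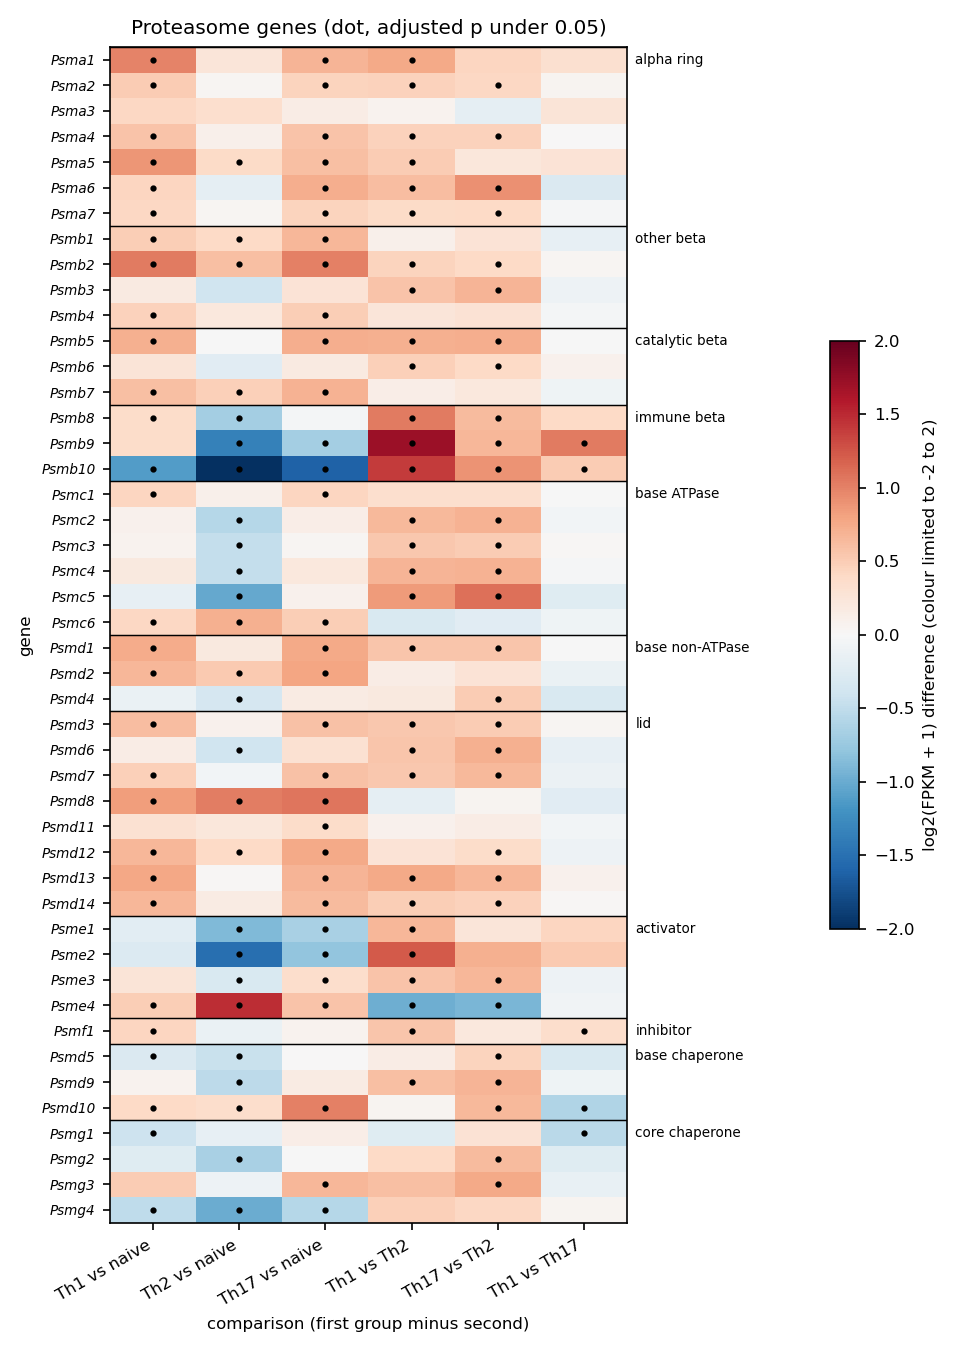
Differences in log2(FPKM + 1) of the 46 members (rows, grouped by role) in the 6 comparisons (columns, first group minus second), with red for higher and blue for lower in the first group, colours limited to -2 to 2, and a dot where limma's adjusted p was under 0.05. The column of Th2 against naïve holds 16 blue dots and 10 red ones, and that of Th1 against Th17 holds 5 dots in all.

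The immune subunits differed widely between groups. *Psmb10*, the trypsin-like immune subunit, stood at 98.2 and 108 FPKM in naïve cells, 42.6 and 52.0 in Th1, 18.1 and 16.4 in Th2 cells, and 29.9 and 35.9 in Th17. No library of one group overlapped another group, and the order was naïve, Th1, Th17, Th2. The log2 difference from naïve was -1.11 (SE 0.14, adjusted p = 0.00037 by limma) in Th1, -1.62 (adjusted p = 5.2e-05) in Th17 and -2.51 (adjusted p = 5.7e-06) in Th2, where the mean level was 0.167 of the naïve mean. All 3 calls held under the 13 alternatives run for each.

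*Psmb9*, which takes the place of *Psmb6*, stood at 190.3 and 239 FPKM in naïve cells, 258 and 290.5 in Th1, 89.0 and 77.4 in Th2 cells, and 124 and 141 in Th17. Both Th1 libraries were above both naïve libraries, while Th17 and Th2 libraries were below them. The difference from naïve was 0.36 (SE 0.15, adjusted p = 0.070 by limma) in Th1, -0.69 (adjusted p = 0.0056) in Th17 and -1.35 (adjusted p = 0.00018) in Th2. In Th1 it passed without naïve replicate 2 (0.52, adjusted p = 0.029) under median scaling (0.40, adjusted p = 0.035) and with the replicate number as a block (adjusted p = 0.048), and was -0.02 after quantile normalization.

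*Psmb8*, which takes the place of *Psmb5* and was the highest member, stood at 313 and 324 FPKM in naïve cells, 400.4 and 419 in Th1, 219 and 181 in Th2 cells, and 293 and 327 in Th17. Th17 overlapped naïve, Th1 lay above and Th2 below. *Psmb8* was called in opposite directions, with a difference of 0.36 (SE 0.13, adjusted p = 0.040 by limma) in Th1 and -0.68 (adjusted p = 0.0026) in Th2 cells, and it did not pass in Th17 (-0.04, adjusted p = 0.79). The Th1 call was lost after quantile normalization (0.04, adjusted p = 0.76), without a filter on low values (adjusted p = 0.054), and without any 1 library of the pair, with an adjusted p of 0.083 without naïve replicate 2, 0.098 without Th1 replicate 1, 0.12 without naïve replicate 1 and 0.15 without Th1 replicate 2. The Th2 call held under all 13.

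Between effector subsets, all 3 immune subunits were higher in Th1 than in Th2, at 27.4% of all genes tested higher and 16.9% lower. The log2 differences by limma were 1.71 for *Psmb9* (adjusted p = 0.00019), 1.40 for *Psmb10* (adjusted p = 0.00032) and 1.04 for *Psmb8* (adjusted p = 0.00088), a ratio of the mean levels of 3.30, 2.74 and 2.05. All 3 were also higher in Th17 than in Th2, where 31.7% of all genes were higher and 12% lower, by 0.67, 0.89 and 0.64 in the same order. The *Psmb9* call of Th17 against Th2 was lost without Th2 replicate 2 (adjusted p = 0.078) or Th17 replicate 2 (adjusted p = 0.079), and that of *Psmb8* without Th17 replicate 2 (adjusted p = 0.056). *Psmb9* (1.05, adjusted p = 0.0029) and *Psmb10* (0.51, adjusted p = 0.038) were higher in Th1 than in Th17, the latter not without Th1 replicate 2 (adjusted p = 0.19), Th17 replicate 1 (0.18) or Th17 replicate 2 (0.055). This *Psmb10* call was also lost with no filter (adjusted p = 0.05003 by limma) and with only the 2 groups compared (0.088). The CD8 T or NK marker sum, nearly all of it *Cd8b1*, was highest in naïve cells, as *Psmb10* was. The B cell and macrophage sums were lowest in Th1, where *Psmb8* and *Psmb9* were highest. The macrophage gene *Cd14* was an exception, with a mean of 2.75 FPKM in Th1 against 0.339 in naïve and 0.548 in Th2 cells. The part of those cells was not tested.

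**Figure D2:**
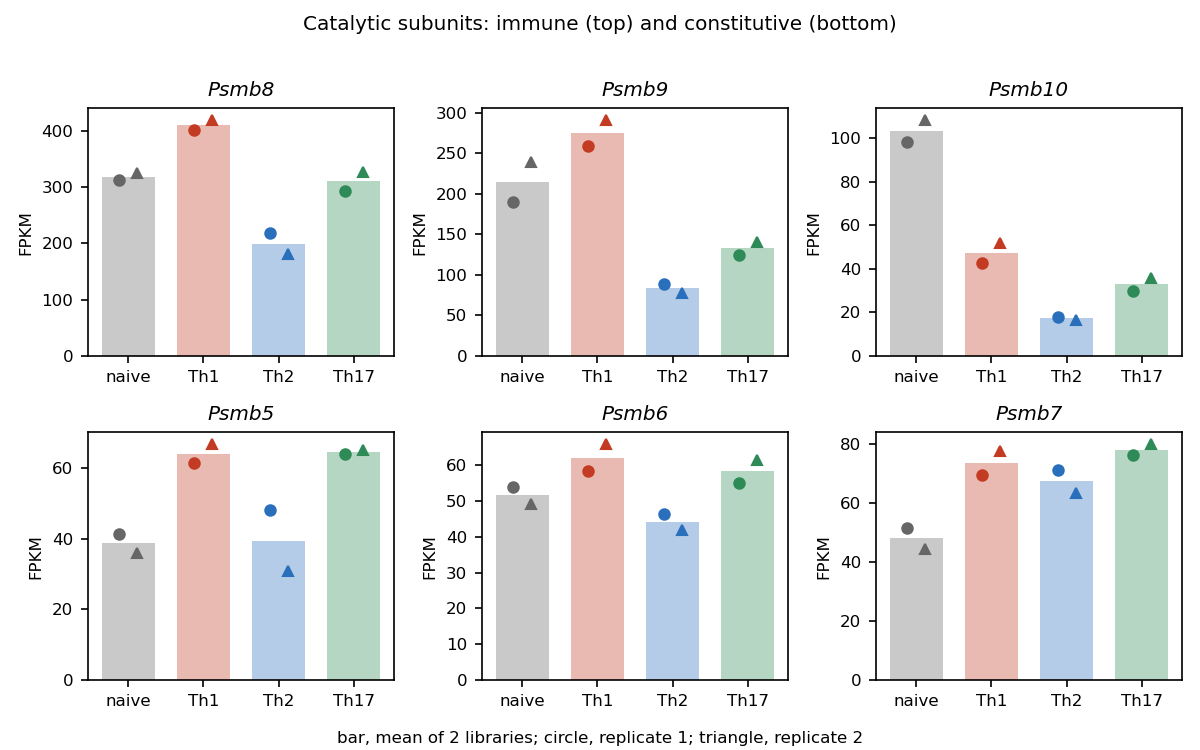
FPKM of the 3 immune subunits (top) and the 3 constitutive catalytic subunits (bottom) in each group, with bars for the mean of 2 libraries, circles for replicate 1 and triangles for replicate 2, each panel on its own axis from 0. Th2 is the lowest group for all 3 immune subunits, and naïve is far above the effector groups for *Psmb10* alone.

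The constitutive catalytic subunits moved differently. *Psmb7*, the trypsin-like subunit, stood at 51.5 and 44.4 FPKM in naïve cells, 69.4 and 77.5 in Th1, 71.1 and 63.4 in Th2 cells, and 76.2 and 79.9 in Th17, so every effector library was above both naïve ones. It was higher in all 3 subsets, by 0.61, 0.48 and 0.69 in Th1, Th2 and Th17 (SE 0.12, adjusted p = 0.0031, 0.0083 and 0.0016 by limma). *Psmb5*, the chymotrypsin-like subunit, stood at 41.4 and 36.1 FPKM in naïve cells, 61.5 and 66.8 in Th1, 48.1 and 30.9 in Th2 cells, and 64.0 and 65.1 in Th17. It was higher in Th1 (0.72, adjusted p = 0.015) and Th17 (0.72, adjusted p = 0.014), and the 2 Th2 libraries fell on either side of the naïve ones. Without naïve replicate 2 these 2 calls were lost (adjusted p = 0.077 and 0.073), as was that of Th1 without Th1 replicate 2 (0.073) and that of Th17 without Th17 replicate 1 (0.056) or 2 (0.063). *Psmb5* shares 54.1% of its 50-base words with other annotated genes, and 46.8% with Gm3375 alone, which has no row in the tables, so its reads could have been split. *Psmb6*, the caspase-like subunit, stood at 53.9 and 49.2 FPKM in naïve cells, 58.4 and 65.9 in Th1, 46.3 and 41.9 in Th2 cells, and 55.1 and 61.6 in Th17, and it passed in no comparison with naïve (0.26, -0.22 and 0.17 in Th1, Th2 and Th17, adjusted p of 0.076, 0.12 and 0.21), though it did in Th1 under median scaling (0.31, adjusted p = 0.030).

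The immune subunit's share of each pair was computed within each library, where scaling between libraries cancels. *Psmb10* made up 65.6% and 70.9% of the summed FPKM of *Psmb10* and *Psmb7* in naïve cells, 38.0% and 40.1% in Th1, 28.2% and 31.0% in Th17, and 20.3% and 20.5% in Th2. This was the one pair in which the constitutive subunit exceeded the immune one, and it did so in all 6 effector libraries. *Psmb9* made up 77.9% and 82.9% of its pair with *Psmb6* in naïve cells, 81.6% and 81.5% in Th1, 69.3% and 69.6% in Th17, and 65.8% and 64.9% in Th2. *Psmb8* made up 88.3% and 90.0% of its pair with *Psmb5* in naïve cells, 86.7% and 86.2% in Th1, 82.1% and 83.4% in Th17, and 82.0% and 85.4% in Th2.

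Effector libraries were compared with naïve ones by an exact two-sided permutation test of the mean log2 ratio, a design of 6 against 2 libraries whose smallest possible p is 0.0714. The mean log2 ratio differed by -2.34 for *Psmb10* to *Psmb7*, from 1.09 ± 0.24 (SD, n = 2) to -1.25 ± 0.57 (SD, n = 6), and all 6 effector libraries lay below both naïve ones (exact permutation p = 0.0714, 0.107 adjusted over the 3 ratios). For *Psmb8* to *Psmb5* it differed by -0.60, with 6 of 6 below (exact permutation p = 0.0714, 0.107 adjusted). For *Psmb9* to *Psmb6* it differed by -0.63, with 4 of 6 below and both Th1 libraries between the naïve ones (exact permutation p = 0.286, 0.286 adjusted). No p under 0.05 could be reached, and Th2 and Th17 libraries make up most of the effector side. Without naïve replicate 2 the difference for *Psmb9* to *Psmb6* was -0.40, the value nearest 0 of any library left out.

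**Figure D3:**
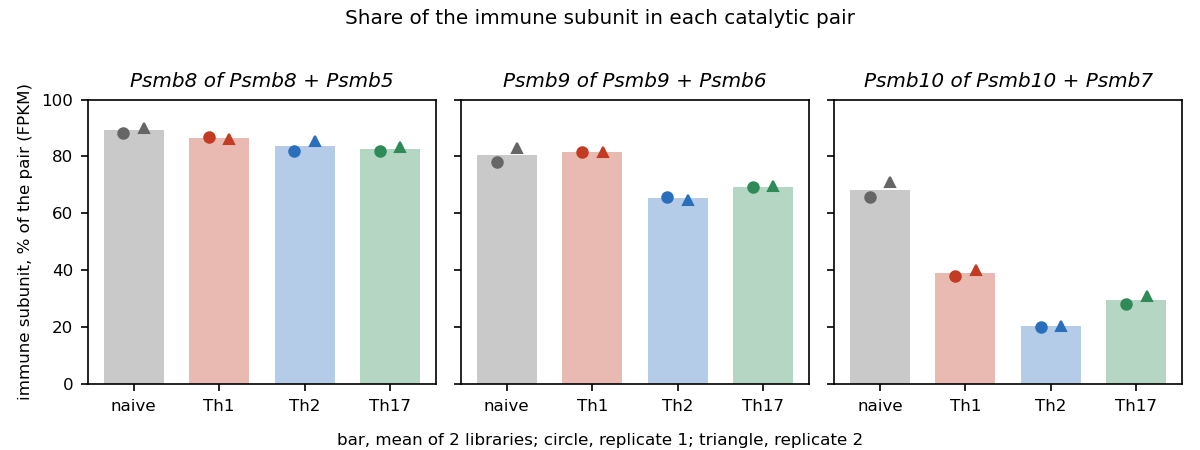
Share of the immune subunit in the summed FPKM of each catalytic pair (percent), per group, with bars for the mean of 2 libraries, circles for replicate 1 and triangles for replicate 2. The share of *Psmb10* falls from 65.6% or more in naïve cells to at most 40.1% in effector cells, while the lowest share of *Psmb8* in any library is 82.0%.

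Of the activators, the PA28αβ genes were lower and PA200 was higher in Th2. *Psme1* stood at 232 and 259.8 FPKM in naïve cells, 196 and 227 in Th1, 133 and 133 in Th2 cells, and 145 and 170.1 in Th17, with all effector libraries below both naïve ones. It was lower in Th2 (-0.88, SE 0.13, adjusted p = 0.00073 by limma) and Th17 (-0.64, adjusted p = 0.0037), and did not pass in Th1 (-0.22, adjusted p = 0.17), though it did after quantile normalization (-0.63, adjusted p = 0.0042). *Psme2*, its partner in the ring, stood at 102 and 138 FPKM in naïve cells, 80.5 and 119.6 in Th1, 38.2 and 44.9 in Th2 cells, and 54.8 and 85.0 in Th17. The replicates of *Psme2* were far apart, with replicate 2 the higher in every group. *Psme2* was lower in Th2 (-1.50, SE 0.28, adjusted p = 0.0022) and Th17 (-0.79, adjusted p = 0.038), the latter not without naïve replicate 2 (-0.58, adjusted p = 0.18) or Th17 replicate 1 (-0.48, adjusted p = 0.21), and in Th1 it was -0.28 (adjusted p = 0.40). The Th17 call of *Psme2* was also lost with no filter (adjusted p = 0.068 by limma) and with only the 2 groups compared (0.060). *Psme2* shares 28.3% of its 50-base words with Psme2b, which has no row in the tables. *Psme1* exceeded *Psme2* in every library, by a ratio of 2.27 and 1.88 in naïve cells and 3.48 and 2.97 in Th2.

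*Psme4*, the nuclear activator PA200, was higher in Th2, where the other 3 activators were lower. It stood at 12.6 and 13.0 FPKM in naïve cells, 18.8 and 18.3 in Th1, 34.5 and 40.6 in Th2 cells, and 19.7 and 19.2 in Th17. The 3 effector groups lay above naïve with no overlap, and Th2 lay far above the others. The differences from naïve were 0.50, 1.47 and 0.56 in Th1, Th2 and Th17 (SE 0.10, adjusted p = 0.0036, 1.5e-05 and 0.0020 by limma), and Th2 exceeded Th1 by 0.98 and Th17 by 0.91 (adjusted p = 0.00036 and 0.00069). *Psme4* was the 1 member higher in Th2 than in both other subsets, a pattern found in 8.94% of all genes, and these calls held in all 13 alternatives run for each. *Psmc6* joined it under median scaling and after quantile normalization.

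*Psme3*, the nuclear activator PA28γ, stood at 44.1 and 48.2 FPKM in naïve cells, 54.5 and 56.7 in Th1, 39.0 and 34.9 in Th2 cells, and 56.8 and 62.1 in Th17. It was lower in Th2 (-0.31, SE 0.10, adjusted p = 0.029 by limma) and higher in Th17 (0.36, adjusted p = 0.018), which with *Psmb8* makes 2 members called in opposite directions, beside 3.47% of all genes. The Th2 call was lost under median scaling (adjusted p = 0.12) and without naïve replicate 2 (0.12) or Th2 replicate 2 (0.13), and the Th17 call after quantile normalization (0.063) and without naïve replicate 1 (0.083) or Th17 replicate 2 (0.091). The Th2 call was also lost with only the 2 groups compared (adjusted p = 0.061 by limma). In Th1 the *Psme3* difference was 0.26 (adjusted p = 0.055). It passed there with no filter (0.048), under median scaling (0.020) and with the replicate number as a block (0.041). *Psmf1*, the inhibitor, stood at 11.99 and 12.2 FPKM in naïve cells, 15.9 and 17.2 in Th1, 11.4 and 10.5 in Th2 cells, and 12.2 and 13.4 in Th17. It was higher in Th1 than in naïve (0.42, adjusted p = 0.0052) and Th2 cells (0.56, adjusted p = 0.0032), and than in Th17 cells by 0.35 (adjusted p = 0.033), a call lost without any 1 of the 4 libraries compared, with an adjusted p of 0.090 and 0.17 without Th1 replicates 1 and 2 and 0.17 and 0.076 without Th17 replicates 1 and 2.

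**Figure D4:**
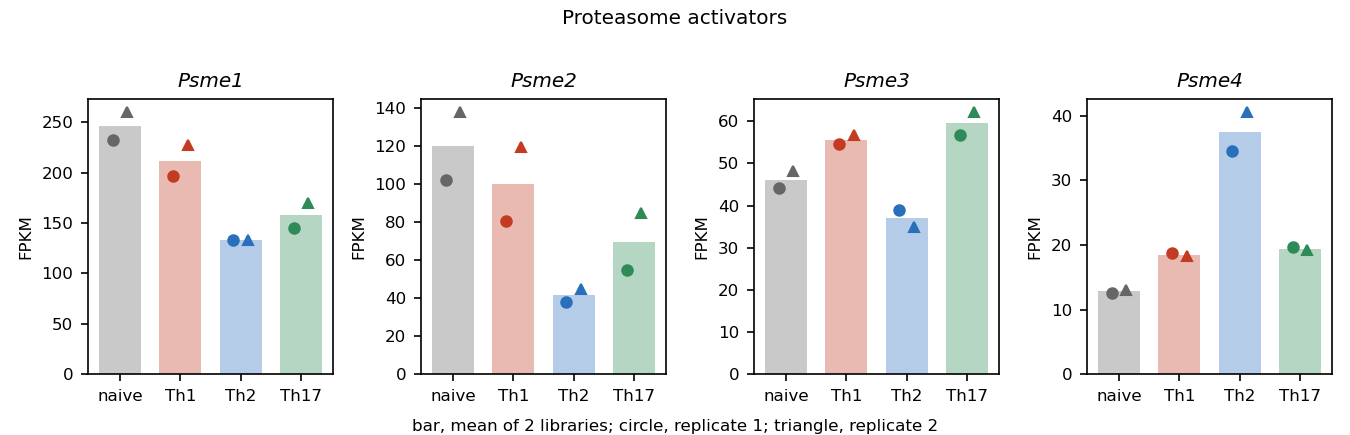
FPKM of the 4 activator genes in each group, with bars for the mean of 2 libraries, circles for replicate 1 and triangles for replicate 2, each panel on its own axis from 0. *Psme1*, *Psme2* and *Psme3* are lowest in Th2, at 133, 38.2 to 44.9 and 34.9 to 39.0 FPKM, and *Psme4* is highest there, at 34.5 to 40.6 FPKM.

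Most α ring genes were higher in Th1 and Th17. Its 7 genes summed to 464 and 415 FPKM in naïve cells, 643 and 669 in Th1, 494 and 435 in Th2 cells, and 632 and 651 in Th17. Of the 7, 6 were higher in Th1 and 6 in Th17, against 1 in Th2 (*Psma5*, 0.38, adjusted p = 0.023 by limma), and none was lower, beside 33.8%, 37.5% and 31.8% of all genes higher in these comparisons. *Psma5* shares 49.96% of its 50-base words with other annotated genes, and 33.6% with Gm8394 alone, which has no row in the tables. *Psma1* had the largest mean difference: it stood at 63.8 and 49.8 FPKM in naïve cells, 121 and 106 in Th1, 72.7 and 61.3 in Th2 cells, and 93.0 and 88.3 in Th17. It was higher in Th1 (1.00, SE 0.15, adjusted p = 0.00096) and Th17 (0.67, adjusted p = 0.0062), while Th2 overlapped naïve (0.24, adjusted p = 0.20, or 0.046 with the replicate number as a block). *Psma3* had the smallest, at 22.8 and 22.8 FPKM in naïve cells, 26.9 and 34.9 in Th1, 25.7 and 32.7 in Th2 cells, and 22.6 and 28.8 in Th17, and it passed in no comparison. It did pass in Th1 (0.45) and Th2 (0.47) under median scaling, in Th2 after quantile normalization (0.44), in Th1 without Th1 replicate 1 (0.59), and in both with the replicate number as a block (adjusted p = 0.013 and 0.028). The count of α subunits higher in Th1 was 3 without naïve replicate 2, without Th1 replicate 2 and after quantile normalization, and none was higher in Th2 without either naïve or either Th2 library.

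The 4 structural β genes summed to 383 and 351 FPKM in naïve cells, 524 and 569 in Th1, 482 and 409 in Th2 cells, and 549.5 and 591 in Th17, so every effector library was above both naïve ones. *Psmb2* stood at 74.98 and 76.9 FPKM in naïve cells, 147 and 168 in Th1, 115 and 116 in Th2 cells, and 141 and 166 in Th17. It was higher in all 3 subsets, by 1.04, 0.60 and 1.00 in Th1, Th2 and Th17 (SE 0.12, adjusted p = 0.00022, 0.0031 and 0.00025 by limma). *Psmb1* was also higher in all 3, and *Psmb4* in Th1 and Th17. The shares of all genes tested that were higher were 33.8%, 31.8% and 37.5% in Th1, Th2 and Th17. Of the 3 higher in Th1, 1 passed without naïve replicate 2 or either Th1 library and after quantile normalization, and of the 2 higher in Th2, 1 passed without naïve replicate 2, Th2 replicate 1 or any 1 Th1 or Th17 library. *Psmb3* had the smallest mean difference, at 61.8 and 59.7 FPKM in naïve cells, 64.1 and 73.4 in Th1, 53.9 and 39.2 in Th2 cells, and 70.3 and 77.8 in Th17. *Psmb3* passed in none of the comparisons with naïve cells (adjusted p of 0.37, 0.062 and 0.16 in Th1, Th2 and Th17), though it passed as lower in Th2 after quantile normalization (-0.42, adjusted p = 0.035) and without Th2 replicate 1 (-0.62, adjusted p = 0.0094).

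The ATPases of the base split into 2 patterns in Th2. *Psmc2*, *Psmc3*, *Psmc4* and *Psmc5* were lower in Th2 than in naïve cells (-0.56, -0.47, -0.48 and -1.03 by limma), *Psmc6* was higher (0.72), and *Psmc1* did not pass (0.09). Of all genes tested, 31.8% were higher and 38.7% lower in Th2, 33.8% and 33.5% in Th1, and 37.5% and 29.8% in Th17. In Th1 and Th17 only *Psmc1* and *Psmc6* were higher and none was lower, and in Th1 no ATPase passed without naïve replicate 2 or Th1 replicate 2. *Psmc5*, also called Rpt6, stood at 53.2 and 56.0 FPKM in naïve cells, 44.9 and 52.1 in Th1, 28.7 and 23.9 in Th2 cells, and 53.4 and 62.3 in Th17. Both Th2 libraries were far below all others, and the difference from naïve was -1.03 (SE 0.13, adjusted p = 0.00041). *Psmc6*, also called Rpt4, stood at 39.4 and 35.04 FPKM in naïve cells, 48.5 and 51.2 in Th1, 56.2 and 67.7 in Th2 cells, and 51.8 and 53.8 in Th17, and Th2 had the highest mean (adjusted p = 0.018, 0.0013 and 0.0081 in Th1, Th2 and Th17). The levels of these 2 subunits of one ring overlapped in Th1 and in Th17 libraries. They lay apart in naïve libraries, with *Psmc5* the higher, and far apart in Th2 libraries, with *Psmc6* the higher. The Th1 call of *Psmc6* was lost without naïve replicate 2 (adjusted p = 0.088), Th1 replicate 1 (0.051) or Th1 replicate 2 (0.085). The count of ATPases lower in Th2 was 2 rather than 4 under median scaling and without naïve replicate 1, naïve replicate 2 or Th2 replicate 2, and the count higher in Th17 was 1 without naïve replicate 2 or Th17 replicate 2.

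Of the other base subunits, *Psmd1* and *Psmd2* were higher in Th1 and Th17, and *Psmd2* also in Th2 (0.52, adjusted p = 0.013 by limma). *Psmd4*, a ubiquitin receptor, stood at 84.3 and 88.1 FPKM in naïve cells, 72.7 and 84.5 in Th1, 66.3 and 70.0 in Th2 cells, and 90.8 and 104 in Th17. It was lower in Th2 (-0.33, adjusted p = 0.036). No base subunit of this kind was called lower in Th2 under median scaling or without any 1 naïve or Th2 library, and none higher without naïve replicate 1 or Th2 replicate 1.

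Most lid genes were higher in Th1 and Th17. Its 8 genes summed to 291 and 279 FPKM in naïve cells, 421 and 453 in Th1, 358 and 344 in Th2 cells, and 441 and 483 in Th17. Of the 8, 6 were higher in Th1 and 7 in Th17, with none lower, beside 33.8% and 37.5% of all genes higher. In Th2 *Psmd8* and *Psmd12* were higher and *Psmd6* lower. No lid subunit was called lower in Th2 under median scaling, after quantile normalization, or without naïve replicate 1, Th2 replicate 2 or any 1 Th1 or Th17 library. *Psmd8*, also called Rpn12, stood at 56.6 and 54.3 FPKM in naïve cells, 93.8 and 106 in Th1, 108 and 119 in Th2 cells, and 112 and 122 in Th17. No effector library came near the naïve ones, and the differences were 0.84, 1.02 and 1.07 in Th1, Th2 and Th17 (SE 0.11, adjusted p = 0.00043, 0.00014 and 0.00012 by limma). *Psmd14*, the deubiquitinase of the lid, was higher in Th1 (0.66) and Th17 (0.64) and did not pass in Th2 (0.17, adjusted p = 0.15).

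Assembly chaperones moved in both directions. The 4 *Psmg* genes summed to 118 and 94.8 FPKM in naïve cells, 92.5 and 83.7 in Th1, 80.4 and 59.8 in Th2 cells, and 96.6 and 104 in Th17. *Psmg4* stood at 54.3 and 40.4 FPKM in naïve cells, 33.8 and 31.4 in Th1, 26.9 and 19.9 in Th2 cells, and 29.7 and 33.0 in Th17, with all effector libraries below both naïve ones. It was lower in Th1, Th2 and Th17 (-0.51, -0.99 and -0.57, SE 0.18, adjusted p = 0.043, 0.0025 and 0.030 by limma), though in Th1 not without naïve replicate 1 (adjusted p = 0.22), Th1 replicate 1 (0.096) or Th1 replicate 2 (0.16), under median scaling (0.057), with no filter (0.073) or with only the 2 groups compared (0.058), and in Th17 not without naïve replicate 1 (0.16), Th17 replicate 1 (0.13) or Th17 replicate 2 (0.068) or with no filter (0.051). With *Psmb10* it makes 2 members of 46 lower in all 3, where 23.8% of all genes were, and under those settings *Psmb10* was the 1 such member. *Psmg3* stood at 13.8 and 12.5 FPKM in naïve cells, 19.4 and 18.8 in Th1, 16.0 and 9.30 in Th2 cells, and 20.7 and 22.04 in Th17. It was higher in Th17 (0.66, SE 0.21, adjusted p = 0.029), a call lost without any 1 of the naïve or Th17 libraries (adjusted p of 0.067 to 0.12).

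Among the chaperones of the base, *Psmd5* stood at 22.6 and 22.3 FPKM in naïve cells, 19.5 and 16.8 in Th1, 17.5 and 15.1 in Th2 cells, and 22.2 and 22.8 in Th17. It was lower in Th2 (-0.44, SE 0.11, adjusted p = 0.0086 by limma) and in Th1 (-0.30, adjusted p = 0.045), the latter not under median scaling (0.078) nor without naïve replicate 1 (0.12), naïve replicate 2 (0.11) or Th1 replicate 2 (0.23). The Th1 call of *Psmd5* was also lost with no filter (adjusted p = 0.052 by limma) and with only the 2 groups compared (0.075). *Psmd10*, also called gankyrin, moved the other way. It stood at 13.1 and 11.2 FPKM in naïve cells, 15.9 and 16.8 in Th1, 16.0 and 15.5 in Th2 cells, and 24.3 and 26.5 in Th17, and was higher in all 3 subsets, by 0.40, 0.35 and 1.01 in Th1, Th2 and Th17 (adjusted p = 0.011, 0.018 and 0.00012). No base chaperone was called higher in Th1 without naïve replicate 2 or Th1 replicate 2, nor in Th2 without naïve replicate 2 or either Th2 library. *Psmd9* was lower in Th2 (-0.53, adjusted p = 0.0017). It shares 24.7% of its 50-base words with Gm26745 on the opposite strand, and the sources give both a stranded and a non-stranded library kit, so reads of the pair may not have been told apart.

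Over all roles, 10 of 46 members (21.7%) were higher in all 3 effector subsets than in naïve cells, beside 24.8% of all genes, so this pattern was not more common among members. They were *Psma5*, *Psmb1*, *Psmb2*, *Psmb7*, *Psmc6*, *Psmd2*, *Psmd8*, *Psmd10*, *Psmd12* and *Psme4*, and the count was 6 without naïve replicate 2 or without Th2 replicate 1. A further 13 (28.3%) were higher in Th1 and Th17 and did not pass in Th2, beside 5.07% of all genes: 5 α subunits, *Psmb4*, *Psmb5*, *Psmc1*, *Psmd1* and 4 lid subunits. That count was 8, beside 3.19% of all genes, after quantile normalization. It was also lower without replicate 2 of naïve, Th1 or Th17, as was the share of all genes.

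The difference between subsets was tested directly. Against Th2, 28 members were higher and 1 lower in Th1, with a median log2 difference of 0.50 beside 0.11 over all genes, and 29 were higher and 1 lower in Th17, with a median of 0.46 beside 0.18. Of all genes tested, 27.4% were higher and 16.9% lower in Th1, and 31.7% and 12% in Th17. Lower in Th2 than in both Th1 and Th17 were 23 of 46 members (50%), beside 19.3% of all genes, and they included all 3 immune subunits, 4 of the 6 ATPases and 5 of the 8 lid subunits. The size of this set depended on single libraries and on scaling. It was much smaller without replicate 2 of Th1, Th2 or Th17, and the share of all genes was smaller there too. It was 16 (beside 12.9% of all genes) under median scaling and 15 (beside 12.4%) after quantile normalization. In a fit blocked on the replicate number it was 29 (beside 24.4%), *Psme2* among them. The count in Th1 against Th2 was 14 without Th1 replicate 2 and 15 without Th2 replicate 2, and that in Th17 against Th2 was 15 without Th2 replicate 2, 11 without Th17 replicate 2 and 18 under median scaling. Of the members higher in Th17 than in Th2, *Psmc5* had the largest difference (1.11, adjusted p = 0.0011 by limma), followed by *Psma6* (0.91), and of those higher in Th1 than in Th2, *Psmb9* had the largest. By mean level Th17 was the highest group for 25 members and Th1 for 14, and the lowest group was naïve for 23 and Th2 for 22.

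Few members were called between Th1 and Th17 cells. Members higher in Th1 were *Psmb9*, *Psmb10* and *Psmf1*, all of which were also higher than in Th2, beside 7.06% of all genes, and members lower were *Psmd10* (-0.61, adjusted p = 0.0057 by limma) and *Psmg1* (-0.54, adjusted p = 0.023), where 9.17% of all genes were higher and 16% lower in this comparison. The other 41 did not pass, which does not show that their levels were equal. With the replicate number as a block, 7 were higher and 4 lower, and with libraries scaled to one median 6 were higher and 2 lower, so that 75% rather than 60% of the calls were higher. Only 1 was higher without naïve replicate 1 or 2, Th1 replicate 2, or Th17 replicate 1 or 2, and only 1 lower without Th1 replicate 1 or 2 or Th17 replicate 2.

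**Figure D5:**
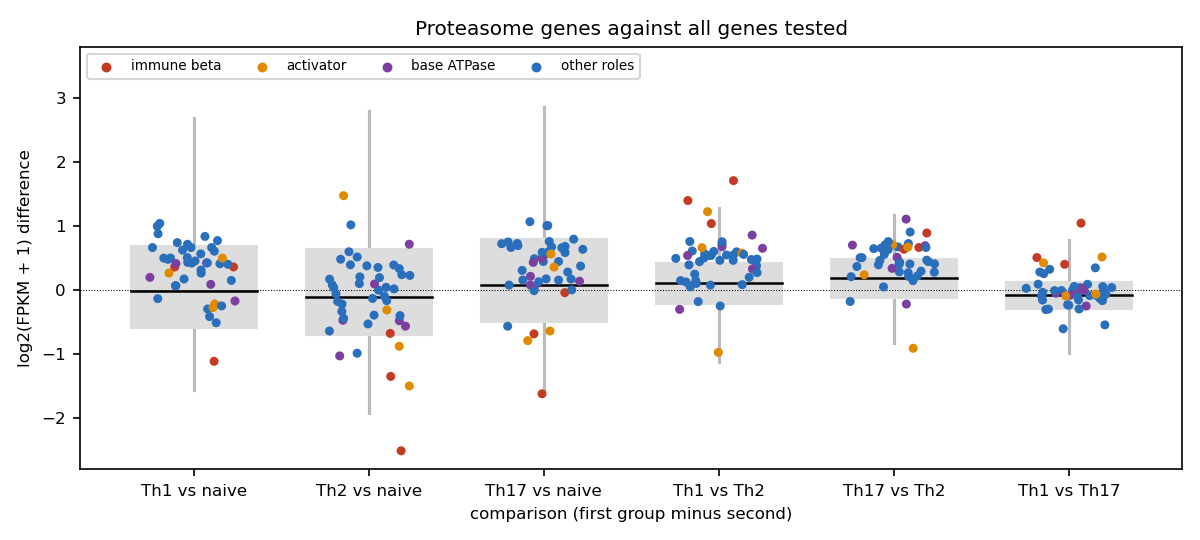
Differences in log2(FPKM + 1) of the 46 members (points, coloured by role) over the spread of all 11198 genes tested (black line, median; grey box, 25th to 75th percentile; grey line, 5th to 95th percentile) in the 6 comparisons. In Th1 and Th17 against naïve most members lie above the median of all genes (37 of 46 in each), and in Th2 25 of 46 do, with *Psmb10* and *Psme2* among the lowest.

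Other genes of the pathway were taken from lists. Of 8 tested genes for proteasome assembly, subunits with other names and associated factors, 5 were higher and none lower in Th1, 5 higher and none lower in Th17, and 4 higher and 2 lower in Th2 (medians of 0.56, 0.77 and 0.47). Of all genes tested, 33.8% were higher and 33.5% lower in Th1, 37.5% and 29.8% in Th17, and 31.8% and 38.7% in Th2. *Pomp*, the maturation factor of the core, stood at 88.4 and 80.5 FPKM in naïve cells, 177 and 169 in Th1, 139.6 and 113 in Th2 cells, and 192 and 204 in Th17, and was higher in Th1, Th2 and Th17 (1.03, 0.57 and 1.22, adjusted p = 0.00035, 0.0055 and 0.00014 by limma). *Shfm1* (also called Sem1, a lid subunit), *Uchl5* and *Usp14*, which remove ubiquitin at the particle, were also higher in all 3, and *Adrm1*, the ubiquitin receptor that holds *Uchl5*, was lower in Th2 (-0.52, adjusted p = 0.0095).

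Of 8 genes for transcriptional control of proteasome genes, 2 were higher and 3 lower in Th1, 1 and 4 in Th2 cells, and 2 and 4 in Th17. For comparison, 33.8%, 31.8% and 37.5% of the 11198 genes were called higher, taking the subsets in that order. Called lower were 33.5%, 38.7% and 29.8% of them. *Nfe2l1*, the factor that drives proteasome genes when proteasomes are short, was higher in Th17 (0.58, adjusted p = 0.0023 by limma) and did not pass in Th1 (0.05) or Th2 (-0.05). *Nfe2l2* was lower in Th1, Th2 and Th17 (-1.93, -1.98 and -0.94), *Mafg*, a partner of both, was higher in all 3 (2.45, 2.47 and 2.32) and *Mafk*, another partner, lower in all 3 (-0.90, -1.34 and -0.95). *Ngly1*, which processes the *Nfe2l1* product, was higher in Th1 (0.72) and lower in Th2 (-0.74) and Th17 (-0.25).

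Of 11 genes for interferon control of the immunoproteasome, 6 were lower and 2 higher in Th1, 8 and 2 in Th2 cells, and 7 and 2 in Th17, beside 33.5%, 38.7% and 29.8% of all genes lower. Against Th2, 7 were higher and 2 lower in Th1, beside 27.4% of all genes higher. *Irf1*, a factor that drives the *Psmb9* and *Tap1* promoter, was lower in all 3 (-1.41, -3.07 and -3.41 in Th1, Th2 and Th17). *Nlrc5*, the activator of MHC class I genes, was lower in Th2 (-3.84) and Th17 (-2.06) and did not pass in Th1 (-0.67, adjusted p = 0.067 by limma). *Irf8* was higher in all 3, most in Th1 (4.46). Levels of *Ifngr1* were higher in Th1 (1.92) and of *Ifngr2* lower in all 3 (-4.10, -1.28 and -1.17).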

How the data were processed

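RNA of 8 libraries, 2 each of naïve CD4 T, Th1, Th2 and Th17 cells, was sequenced by the authors as 50 bp reads. Per the labels and the study's methods, the authors aligned reads to mm10 with TopHat 1.3.2 and Bowtie 0.12.8 and estimated FPKM values with Cufflinks 2.0.2, and the gene annotation they used is not given in the sources used here. The deposited FPKM values are normalized to gene length and library, and carry no counts. Depth was therefore implied from the deposited confidence intervals (14463466 to 21058286 fragments per library) and covers counting error only. The sources name both a stranded and a non-stranded kit.

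From these values, FPKM was summed per symbol, genes with a mean of at least 1 over the 8 libraries were kept, and log2(FPKM + 1) was fitted with limma 3.58.1 (R 4.3.3) over all 4 groups with a trended prior. Benjamini-Hochberg adjusted p-values were taken over all 11198 genes in each of 6 comparisons, which share libraries, the naïve ones among them, and are thus not independent. A fold change on this scale understates that of low genes. Ratios of paired subunits were compared by exact permutation (scipy 1.17.1) in Python 3.11.15. Group membership was taken from the labels. The test script was tested on simulated data.

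Named members were all catalytic and immune β subunits, all activators and the inhibitor, and in each remaining family those with the largest and the smallest mean difference from naïve cells, plus members called in opposite directions. *Psma5*, *Psma6*, *Psmb1*, *Psmb4*, the other *Psmc* genes, *Psmd1*, *Psmd2*, *Psmd4*, *Psmd6*, *Psmd9*, *Psmd10*, *Psmd12*, *Psmd14* and *Psmg1* were named after their values were seen, to account for counts. Some genes of the lists are counted but not reported here by name. The members and gene lists were chosen with earlier results of these data known. Alternatives were the pseudocount (0.1), the filter (none, or a mean of at least 5), median scaling, quantile normalization, no variance trend, 1 row per symbol, only the 2 groups compared, a replicate block and each library left out. Leaving out members that share over 20% of their sequence was chosen after seeing the data.

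Libraries of the same replicate number deviated together weakly, in all pairs of groups. The correlation of their deviations from the group means over 11198 genes was 0.138 to 0.294 in the 6 pairs of groups, and the labels state no shared culture or day. *Mpo* and *Elane* stood at 2.46 to 4.89 FPKM in replicate 1 of each effector group and at most 0.106 FPKM in replicate 2. The other listed neutrophil genes, *S100a8* and *S100a9*, stood at most at 0.663 FPKM in any library. *Psme2* was higher in replicate 2 of every group. Whether libraries shared a day or culture was not tested. In the main fit the number was not taken to pair the samples. The replicate block, an alternative, changed some calls, with 29 rather than 23 members lower in Th2 than in both Th1 and Th17.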

Additional observations from a re-analysis of the deposited data

Results flagged for a closer look

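The members below differed from naïve cells by unlike amounts in 2 effector subsets, as the difference between the subsets itself passed limma's test at an adjusted p under 0.05. Higher in Th1 than in Th2 were the immune subunits *Psmb9* (1.71 on the log2 scale, adjusted p = 0.00019), *Psmb10* (1.40, 0.00032) and *Psmb8* (1.04, 0.00088), the PA28αβ genes *Psme2* (1.23, 0.011) and *Psme1* (0.66, 0.0064), the core subunits *Psma1* (0.76, 0.0071), *Psmb6* (0.48, 0.013) and *Psmb2* (0.44, 0.021), and the inhibitor *Psmf1* (0.56, 0.0032). *Psme4* was lower in Th1 than in Th2 (-0.98, adjusted p = 0.00036).

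Higher in Th17 than in Th2 were the ATPase *Psmc5* (1.11, adjusted p = 0.0011 by limma), the chaperones *Psmg3* (0.76, 0.028) and *Psmd5* (0.44, 0.016), the core subunits *Psmb5* (0.73, 0.023) and *Psmb3* (0.67, 0.015), and the activator *Psme3* (0.67, 0.0027). Without 1 library the following adjusted p-values were above 0.05: *Psme2* without Th1 replicate 2 (0.070) or Th2 replicate 1 (0.064), *Psma1* without Th2 replicate 2 (0.0502), *Psmb6* without Th1 replicate 2 (0.085) or Th2 replicate 2 (0.077), *Psmb2* without Th1 replicate 2 (0.12), Th2 replicate 1 (0.071) or Th2 replicate 2 (0.082), *Psmg3* without Th17 replicate 1 (0.086) or 2 (0.13), *Psmd5* without Th2 replicate 2 (0.088) or Th17 replicate 1 (0.060) or 2 (0.083), *Psmb5* without Th2 replicate 2 (0.063) or Th17 replicate 1 (0.082) or 2 (0.10), and *Psmb3* without Th2 replicate 2 (0.058) or Th17 replicate 2 (0.087). Under median scaling and after quantile normalization they were also above 0.05 for *Psmd5* (0.096 and 0.093) and *Psmg3* (0.069 and 0.069), under median scaling for *Psmb5* (0.061), and after quantile normalization for *Psmb2* (0.11). For *Psmg3* this also held with no filter (0.052) and with only the 2 groups compared (0.071), and for *Psmb5* with only the 2 groups compared (0.056).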

How the results depend on the processing

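Beside the settings named with the results, the count of members lower in Th1 than in naïve cells was 2 with no filter on low values, 2 under median scaling, 7 after quantile normalization and 2 with only the groups compared. Lower in Th17 than in naïve were 3 with no filter. Lower in Th1 than in Th2 were 2 under median scaling and 3 after quantile normalization, and in Th17 against Th2 18 were higher and 2 lower under median scaling and 2 lower after quantile normalization. In Th1 against Th17, 6 were higher under median scaling and 1 with only the groups compared, and the replicate block gave 7 higher and 4 lower. With a log2 difference of at least 1 also required, 0 members were higher in all 3 subsets. Elsewhere the block moved no count of calls by over 1.5 times. Quantile normalization moved the median of all genes from -0.01 to -0.13 in Th1 and from 0.08 to -0.12 in Th17 against naïve, and from 0.18 to 6.65e-05 in Th17 against Th2.

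Leaving out each library in turn, where a group of 1 library is assumed to vary like the others, gave 15 to 26 higher and 1 to 4 lower in Th1, 6 to 9 and 10 to 17 in Th2, and 18 to 26 and 3 to 5 in Th17 against naïve. It gave 14 to 29 higher and 1 to 2 lower in Th1 against Th2, 11 to 28 and 1 to 1 in Th17 against Th2, 1 to 3 and 1 to 2 in Th1 against Th17, and 6 to 9 higher in all 3. The log2 ratio difference ran from -0.72 to -0.48 for *Psmb8* to *Psmb5*, from -0.86 to -0.40 for *Psmb9* to *Psmb6* and from -2.52 to -2.17 for *Psmb10* to *Psmb7*.

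Of 2249 values of single members, 1951 kept direction and side of the threshold, 261 no longer passed, 20 newly passed and 17 changed sign, none of them called. These were, in Th2, *Psmb5* (0.13 under median scaling, 0.0124 after quantile normalization, and -0.31 to 0.31 over the libraries left out, with 0.0943 without naïve replicate 1 and 0.31 without Th2 replicate 2) and *Psmg3* (0.0313 and 0.0236 under those scalings, and -0.46 to 0.26, highest without Th2 replicate 2). In Th17 they were *Psmd5* (-0.0420 and -0.0488 under those scalings, and -0.0141 to 0.0181, with -0.00527 without naïve replicate 2), *Psmc5* (-0.0827 after quantile normalization, and -0.0313 to 0.188), *Psma3* (-0.0138 to 0.32) and *Psmb8* (-0.12 to 0.0385). In Th1 they were *Psme2* (-0.56 to 0.00787) and *Psmb9* (-0.0207 after quantile normalization). The cause was not tested.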

Other observations

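Genes that act downstream of the proteasome in MHC class I presentation were mostly lower in Th2 and Th17 cells. Of 11 genes for peptide transport and loading, 3 were higher and 8 lower in Th2, 3 and 8 in Th17, and 3 and 3 in Th1 than in naïve cells, beside 38.7%, 29.8% and 33.5% of all genes lower. Directly compared, 8 were higher and 2 lower in Th1 than in Th2, and 7 higher and 0 lower in Th1 than in Th17, beside 27.4% and 9.17% of all genes higher. *Tap1*, the transporter subunit whose gene lies next to *Psmb9*, was -0.47, -1.83 and -1.53 in Th1, Th2 and Th17 (adjusted p = 0.044, 7.1e-05 and 0.00019 by limma), and its partner *Tap2* passed in Th2 (-1.49) and Th17 (-0.60). *B2m*, the light chain of MHC class I, was lower in Th2 (-0.58, adjusted p = 0.0072) and Th17 (-0.86, adjusted p = 0.0012) and did not pass in Th1 (0.19, adjusted p = 0.26). The general endoplasmic reticulum chaperones *Calr*, *Canx* and *Pdia3* were higher in all 3 subsets.

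Of 14 tested genes for shuttle factors, ubiquitin and its activation, 5 were higher and 3 lower in Th1, 4 and 4 in Th2 cells, and 5 and 2 in Th17. The higher counts lay near the shares of all genes, which were 33.8%, 31.8% and 37.5% higher. Of all genes 33.5%, 38.7% and 29.8% were lower. *Uba1*, the main ubiquitin-activating enzyme, was higher in Th1, Th2 and Th17 (1.34, 1.08 and 1.73, adjusted p = 0.00019, 0.00049 and 4.9e-05 by limma), as was *Uba6*, the other such enzyme. *Ubqln2*, a shuttle factor, was lower in all 3 (-0.72, -0.997 and -0.76). Both lists were chosen with earlier results of these data known.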
